A study of Homo sapiens with 66 samples.

Results

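Mediator is the multi-subunit complex that carries signals from DNA-bound transcription factors to RNA polymerase II. Its 33 human genes, taken from a given list of symbols and each matched to 1 Ensembl gene, were followed here among the 58721 genes counted in the melanoma line A375. They were ordered by the part of the complex their products belong to: 7 genes of the head, 9 of the middle, 9 of the tail, the backbone subunit MED14, and 7 of the kinase module. All groups are A375 cells, a melanoma line with mutant BRAF, and each group holds 3 libraries. In the first experiment 7 cell populations received vemurafenib, which blocks mutant BRAF, at 1 µM for 24 h, or DMSO for as long. They were control cells with a guide against GFP, and cells knocked out for MED12, MED19 or MED23 with guide 1 or guide 2. The second experiment had control cells and MED23 knockout cells (guide 1), each either with the construct labelled EV or overexpressing SOX10, a lineage factor of melanocytes. In the third, control cells were set beside knockouts of HDAC3 (a histone deacetylase of corepressor complexes), of MED23, and of both genes. No drug is named for the samples of these other two experiments. The labels do not say whether knockout cells were pools or clones, nor which MED23 guide the HDAC3 experiment used. Its 3 control columns are named for GFP and were assigned to the control samples by elimination.

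The head and middle of Mediator contact the polymerase and the general initiation factors, the tail receives many activators, and MED14 runs through all 3 as a scaffold. The kinase module binds the rest of the complex reversibly. It consists of cyclin C, a cyclin-dependent kinase that is either CDK8 or CDK19, MED12, which activates that kinase, and MED13, which tethers the module. MED12, MED13 and CDK8 each have a vertebrate paralogue (MED12L, MED13L and CDK19). MED23 is known as the subunit contacted by ELK1, a transcription factor phosphorylated by ERK, the kinase downstream of BRAF.

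The 66 libraries held 65878321 to 211789279 counts each in the drug experiment, 24870916 to 30770896 in the SOX10 experiment and 58839464 to 106185458 in the HDAC3 experiment. The labels do not say that replicates were separate cultures, so p-values measure the spread between libraries, which may be technical. In counts scaled to library size (CPM), SOX10 was at 770.5 ± 40.6 (SD, n = 3) in control cells in DMSO, and the melanocytic markers MITF and S100B were also detected. The pigment genes MLANA, PMEL, TYR, DCT and TYRP1 were each below 2.5 CPM there, and SOX10 made up most of the markers' sum in these libraries. The 8 melanocytic markers together rose from 852.8 to 930.5 CPM in those libraries to 2134 to 2191 CPM under vemurafenib, and lay between 164.3 and 212.9 CPM in MED12 knockout cells in DMSO. Their sum was also lower there in MED19 knockout (475.1 to 635.3 CPM) and MED23 knockout (360.1 to 412 CPM). In the drug it lay between 154 and 192.5, 556.6 and 867.9, and 471.5 and 584.3 CPM in the 3 knockouts. Single markers did not all follow the sum. In DMSO 1 of the 8 rose and 5 fell in MED12 knockout, 0 and 4 in MED19 knockout, and 2 and 4 in MED23 knockout. In the drug 1 rose in each knockout, and 7, 6 and 5 fell. In the other experiments the sum was 639.4 to 654.3 CPM in EV control cells and 798.2 to 829.2 CPM with SOX10, which is itself 1 of the 8 markers. It was 564.1 to 576.3 CPM in the HDAC3 experiment's controls and 984.2 to 1010 CPM in HDAC3 knockout cells. In MED23 knockout cells it was 329.3 to 345.4 CPM with EV and 562 to 575.2 CPM with SOX10. In the HDAC3 experiment it was 305 to 319.7 CPM with MED23 knockout and 494.5 to 552.5 CPM in cells lacking both genes. The 7 markers of other cell types summed to 10.84 to 11.25 CPM in control cells, nearly all of it KRT14, and to 3.834 to 4.579 CPM in MED12 knockout cells in DMSO. Without KRT14 the sum was 1.165 to 1.621 CPM in control cells and 2.763 to 3.389 CPM in MED12 knockout cells, where 3 of the 5 markers tested rose and 1, KRT14, fell. PTPRC, CD3E and ALB, which define blood and liver cells, averaged at most 0.074 CPM in those controls, and PTPRC was at 2.32 CPM (mean) in treated control cells. Libraries of a bulk culture cannot tell a smaller share of cells from less RNA per cell, and the part that these shifts in cell state had in the results below was not tested.

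All 33 genes passed the filter on low counts in each experiment. In control cells in DMSO their levels lay between 6.78 CPM (MED12L) and 177 CPM (MED1), with a median of 43.06 CPM. Per kilobase of transcript, the scale on which genes can be compared, MED10 was highest (38.6 ± 0.64 CPM per kb, SD, n = 3), followed by the tail subunit MED27 (35.2 ± 0.94), MED8 (33.9 ± 0.99) and CCNC, which encodes cyclin C (33.1 ± 1.2). The 3 libraries of MED27 overlapped those of MED8, and those of MED8 overlapped CCNC, so the order of these 3 is not resolved. At the other end stood CDK19 (5.18 ± 0.19 CPM per kb), MED26, which links Mediator to elongation complexes (3.60 ± 0.29), the head scaffold MED17 (1.53 ± 0.10) and MED12L (0.631 ± 0.025). The lowest 3 of these were also the lowest 3 in the controls of the SOX10 and HDAC3 experiments. MED26 shares 44.1% of its exon bases with other genes on its own strand and MED17 13%, and 30.1% of MED12L exon bases lie opposite other genes. How reads in shared bases were counted is not given, and the part of this in their low values was not tested. Within the kinase module 1 paralogue was the more abundant mRNA in each pair: CDK8 at 15.8 against CDK19 at 5.18, MED13 at 15.9 against MED13L at 7.64, and MED12 at 17.6 against MED12L at 0.631 CPM per kb.

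Vemurafenib moved the 2 kinase genes in opposite directions, and CDK19 had the largest rise of all members. CDK19 (ENSG00000155111, chromosome 6, 110609978 to 110815958, GRCh38) was at 31.5, 31.9 and 33.7 CPM in the 3 control libraries in DMSO and at 67.8, 67.4 and 67.2 CPM in the drug. It rose by 1.06 ± 0.04 (log2 fold change ± SE, edgeR's quasi-likelihood test, Benjamini-Hochberg adjusted p = 2.33e-28). CDK8 (ENSG00000132964, chromosome 13, 26254104 to 26405238) was at 48.4, 48.7 and 48.0 CPM in DMSO and at 34.4, 34.3 and 34.8 CPM in the drug, a change of -0.49 ± 0.04 (adjusted p = 4.53e-16). The drug and DMSO libraries did not overlap for either gene. Per kilobase, CDK19 made up 24.6% ± 0.78 of the pair in DMSO and 48.9% ± 0.29 in vemurafenib (SD, n = 3). The sum of both kinases was 21.0 ± 0.12 CPM per kb in DMSO and 22.1 ± 0.066 in the drug, so the pair's total moved far less than its makeup.

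Sequences upstream of these 2 genes are shown because the genes are a paralogue pair that moved apart. They cover 250 to 104 bases before the RefSeq start of each gene that lies farthest upstream (GRCh38.p14), 5′ to 3′ on the strand of the gene. The bases nearest the start are not included, so the windows are parts of the promoters only. Neither window overlaps the annotated span of its own gene, and overlap with other genes was not checked. Capitals mark CCAAT (the letters of the CCAAT box) in the first and CACGTG (an E-box, the kind of site bound by MITF and MYC) in the second.
CDK19, chr6:110815959-110816105, minus strand: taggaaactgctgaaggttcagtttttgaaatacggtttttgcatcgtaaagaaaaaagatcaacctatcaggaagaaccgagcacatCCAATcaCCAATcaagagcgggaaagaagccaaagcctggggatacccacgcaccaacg
CDK8, chr13:26253879-26254025, plus strand: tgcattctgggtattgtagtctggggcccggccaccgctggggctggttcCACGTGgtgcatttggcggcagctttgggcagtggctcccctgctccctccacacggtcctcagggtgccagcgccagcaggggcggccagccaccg
The CDK19 window held 2 CCAAT matches and 44.9% G and C bases, and the CDK8 window 1 CACGTG match and 68.7%. Both strands were searched. Of 35093 RefSeq windows of the same length and place, 18.4% held CCAAT and 2.93% held CACGTG. The other letters searched were CCGGAA (a longer form of the ETS core), TGANTCA (AP-1) and ACAAAG (SOX core). They were found in 6.53%, 3.69% and 8.47% of all windows and in neither of these. The shorter ETS core GGAA was not searched, and its letters occur in both windows, in that of CDK8 on the opposite strand. A match is a string of letters, not a measured binding site.

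Of the remaining kinase module genes CCNC fell, MED12, MED12L and MED13L rose, and MED13 was not called. CCNC (ENSG00000112237, chromosome 6, 99542380 to 99568973), the cyclin shared by both kinases, was at 84.6, 78.9 and 81.9 CPM in DMSO and at 47.9, 52.1 and 51.8 CPM in vemurafenib (-0.69 ± 0.04, adjusted p = 1.75e-21). Every drug library was below every DMSO library. MED12 rose from 118, 121 and 121 to 152, 138 and 151 CPM (0.30 ± 0.04, adjusted p = 3.68e-10). Its rare paralogue MED12L rose by 0.39 ± 0.08 (adjusted p = 3.59e-05) to 9.27, 8.69 and 8.75 CPM. MED13L rose by 0.20 ± 0.03 (adjusted p = 1.04e-06), from 110 to 113 CPM in DMSO to 126 to 130 CPM in the drug, while MED13 changed by -0.06 ± 0.03 (adjusted p = 0.0807), a value that passed the threshold with DESeq2 size factors (adjusted p = 0.0221). Of the 7 kinase module genes 4 rose and 2 fell, beside 35.8% and 30.3% of all genes.

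**Figure D1:**
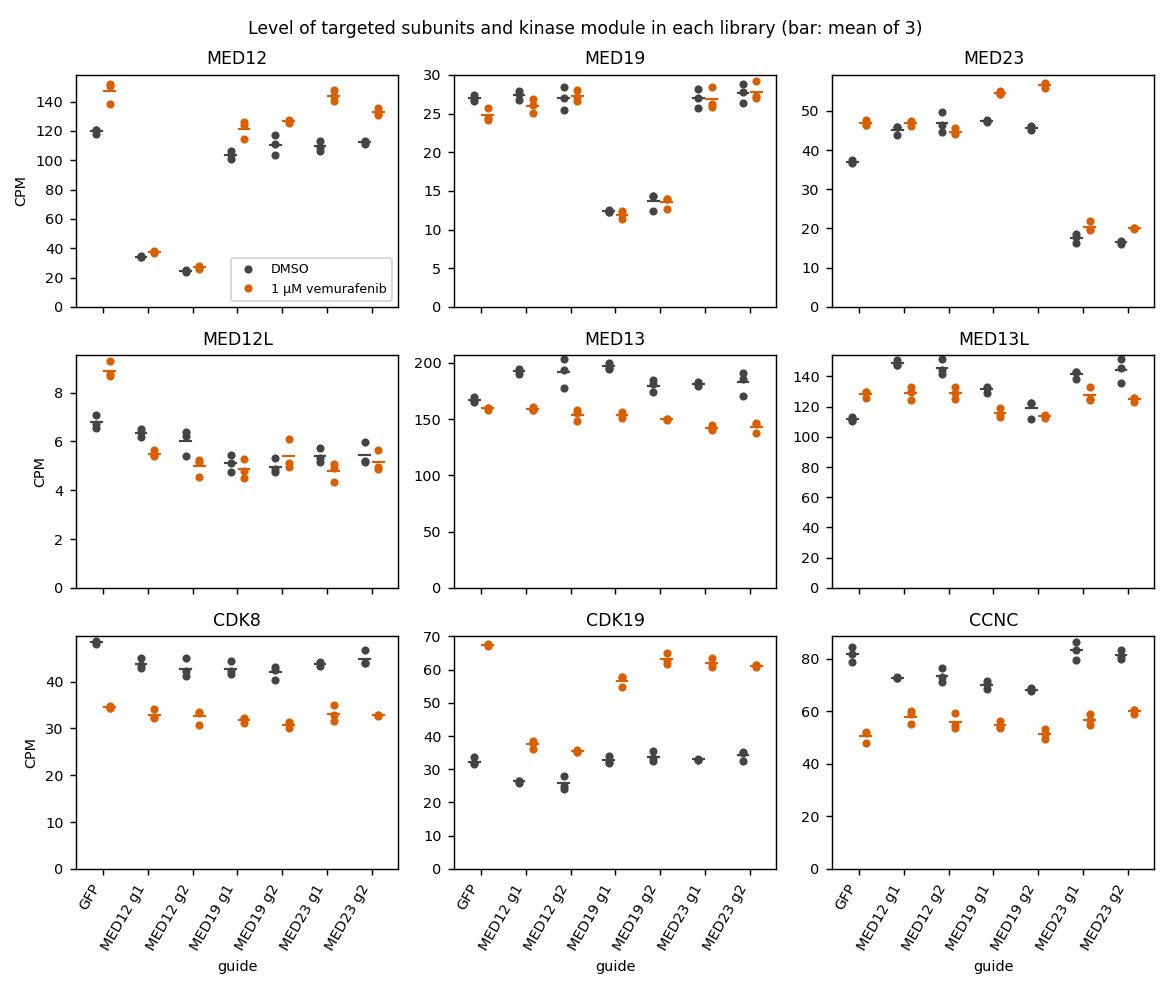
CPM of the 3 targeted genes and the other kinase module genes in each library of the drug experiment, by guide (grey points DMSO, orange points vemurafenib, bars the mean of 3 libraries). In control cells CDK19 is at most 33.7 CPM in DMSO and at least 67.2 CPM in the drug, and the MED12 knockout libraries lie between 35.1 and 38.5 CPM in the drug.

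Outside the kinase module the drug lowered most subunits. Over all 33 genes 9 rose and 21 fell. In the same comparison 66.2% of the 27453 genes tested passed the threshold, 35.8% higher and 30.3% lower. The members' median was -0.19, against 0.11 for all genes (0.087 with DESeq2 scaling). The median absolute log2 fold change was 0.31 for the members and 0.68 for all genes. All genes are not a set matched for level. Only 12189 of the 27453 had a mean log2 CPM of at least 2, while every member was at 6.78 CPM or more in control cells in DMSO. This holds for each comparison with all genes in the drug experiment. At 1.5-fold, 2 members rose and 6 fell, and 43.7% of all genes passed (25.5% higher, 18.3% lower). The 9 middle subunits all fell (median -0.35), as did 5 of 7 head subunits with 1 rising (median -0.21) and MED14 (-0.18 ± 0.03). The tail was split, with 4 of 9 higher and 4 lower (median -0.04). The mitochondrial share of counts was 1.15% to 1.23% in the DMSO controls and 2.42% to 2.76% in the drug, and its part in these changes was not tested.

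MED22 (ENSG00000148297, chromosome 9, 133338323 to 133348131), which pairs with MED11 in the head, fell the most of all members. It was at 42.4, 44.6 and 42.2 CPM in DMSO and at 19.7, 19.0 and 19.3 CPM in vemurafenib (-1.15 ± 0.04, adjusted p = 2.83e-29), with no overlap. MED10, a middle subunit, went from 44.2, 44.6 and 43.2 to 25.1, 25.0 and 27.3 CPM (-0.77 ± 0.04, adjusted p = 6.39e-24), and MED9, also of the middle, from 15.1, 16.5 and 15.3 to 10.0, 10.7 and 9.01 CPM (-0.66 ± 0.07, adjusted p = 9.5e-12). Against this direction stood MED15 (ENSG00000099917, chromosome 22, 20495913 to 20587632), the tail subunit bound by the sterol regulator SREBP. It was at 59.9, 65.3 and 61.8 CPM in DMSO and at 109, 111 and 113 CPM in the drug (0.84 ± 0.04, adjusted p = 3.48e-26). Its nearest followers among the subunits outside the kinase module were MED28 (0.35 ± 0.03) and MED23 (0.34 ± 0.04). MED28 and MED15 each have 8 pseudogenes by name, and 32.1% of MED28 exon bases lie opposite another gene. Reads from such copies and from opposite strands may be counted with them, since the strand setting of the counting is not given. MED11 rose by 0.30 ± 0.07 (adjusted p = 8.75e-05), and 36.9% of its exon bases lie opposite another gene. MED19, a middle subunit, changed by -0.12 ± 0.05 (adjusted p = 0.0249), and this call was lost without DMSO control replicate 1 or without vemurafenib control replicate 2 or 3 (adjusted p = 0.0626, 0.0948 and 0.0794).

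**Figure D2:**
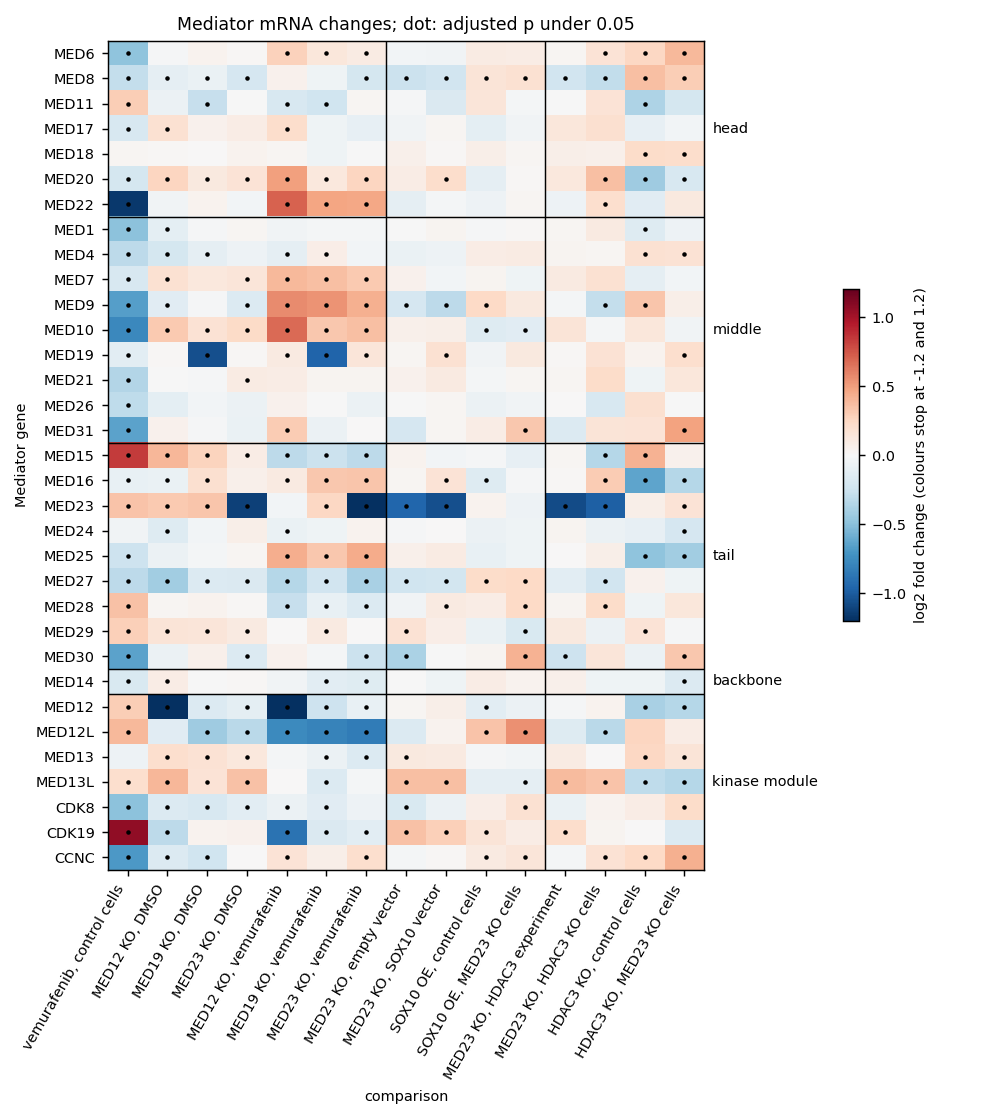
Log2 fold changes of the 33 genes (rows, grouped by module) in 15 comparisons (columns), with a dot where the adjusted p is under 0.05 and colours that stop at -1.2 and 1.2. The middle module is lower throughout in vemurafenib, and in the DMSO knockout columns the targeted gene is the only one past 1.5-fold.

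Other parts of the transcription machinery were read beside Mediator in the same comparison, where 35.8% of all genes rose and 30.3% fell. Of 12 RNA polymerase II subunits 10 fell and 0 rose (median -0.50), led by POLR2D (-1.06 ± 0.03) and POLR2K (-0.89 ± 0.04). Of 18 general initiation factors 14 fell and 1 rose (median -0.41), with the TFIIH subunits GTF2H2 at -0.94 ± 0.04 and GTF2H5 at 0.61 ± 0.04. Of 13 TFIID subunits 7 fell and 3 rose, with TAF5 at -1.80 ± 0.06. The elongation factors had 15 lower and 3 higher of 20 tested, with the kinase CDK12 at -1.03 ± 0.03 and AFF1, a scaffold of the super elongation complex, at 0.92 ± 0.04. Cohesin and coactivator genes were divided, 7 higher and 5 lower of 14, with RAD21 (cohesin) at -1.03 ± 0.02 and the coactivator PPARGC1A at 2.64 ± 0.12. The Mediator median of -0.19 thus lay between those of TFIID (-0.11) and the elongation factors (-0.34).

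The knockouts were compared with control cells in DMSO, to ask how loss of 1 subunit changed the mRNA of the others. All 3 comparisons use the same 3 control libraries, so their values are given side by side and not as independent results. In each of them the targeted gene was the only member to pass 1.5-fold, beside 23.9%, 11.8% and 11.4% of all genes for MED12, MED19 and MED23. MED12 knockout changed 21 of 33 members (10 rose, 11 fell, the target included) against 54.9% of all genes (27.9% higher, 27% lower). MED19 knockout changed 17 (8 and 9) against 40.6% (20.4% and 20.2%), and MED23 knockout 16 (8 and 8) against 36.9% (18.4% and 18.5%). The members' shares (63.6%, 51.5% and 48.5%) were above these backgrounds, which are not matched for level. Without MED12, MED19 and MED23 the shares were 63.3%, 46.7% and 46.7% of the other 30 members. The median absolute log2 fold changes of all 33, at 0.14, 0.10 and 0.09, were below the 0.36, 0.25 and 0.22 of all genes. The mitochondrial share of counts, 1.15% to 1.23% in these controls, was 1.34% to 1.69% in MED12, 1.54% to 1.69% in MED19 and 1.23% to 1.72% in MED23 knockout cells, and its part in the changes was not tested.

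MED12 (chromosome X, 71118556 to 71142454) encodes the subunit that activates the module's kinase. In MED12 knockout cells CDK19, CDK8 and CCNC fell and MED13L and MED13 rose. Its mRNA was at 118, 121 and 121 CPM in control cells, 34.8, 34.1 and 34.2 CPM with guide 1, and 25.0, 24.7 and 24.0 CPM with guide 2 (-2.04 ± 0.03 over both guides, adjusted p = 1.87e-44). CDK19 fell from 31.5, 31.9 and 33.7 CPM to 26.0, 26.4 and 26.6 CPM with guide 1 and 24.1, 25.0 and 28.1 CPM with guide 2 (-0.32 ± 0.03, adjusted p = 4.89e-11). All 6 knockout libraries were below all 3 controls. CDK8 (-0.16 ± 0.03, adjusted p = 2.91e-05) and CCNC (-0.16 ± 0.03, adjusted p = 2.97e-05) fell by less. MED13L rose from 111, 110 and 113 CPM to 147, 151 and 148 CPM with guide 1 and 144, 142 and 152 CPM with guide 2 (0.40 ± 0.03, adjusted p = 1.42e-16), and MED13 rose by 0.20 ± 0.03 (adjusted p = 2.79e-08). The paralogue of the lost gene did not rise: MED12L was at 6.55, 7.08 and 6.70 CPM in control cells and between 5.40 and 6.49 CPM in the 6 knockout libraries (-0.14 ± 0.07, adjusted p = 0.103; adjusted p = 0.0391 by DESeq2's Wald test). Its share of the MED12 and MED12L pair was 3.45% ± 0.10 in control cells and 10.5% ± 0.34 and 13.4% ± 1.1 with the guides, while the sum of the pair went from 18.3 to 5.65 and 4.17 CPM per kb.

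Outside the kinase module the largest changes in MED12 knockout cells were in the tail. MED15 rose from 59.9, 65.3 and 61.8 CPM to 82.7, 83.3 and 83.6 CPM with guide 1 and 82.1, 84.8 and 76.3 CPM with guide 2 (0.40 ± 0.03, adjusted p = 1.03e-15). MED23 rose by 0.31 ± 0.03 (adjusted p = 9.77e-12), and so did MED10 of the middle (0.31 ± 0.03, adjusted p = 4.32e-12). MED27 fell from 51.7, 50.5 and 49.0 CPM to between 36.1 and 39.1 CPM (-0.42 ± 0.04, adjusted p = 3.88e-14), and the middle subunit MED4 by 0.21 on the log2 scale (-0.21 ± 0.03, adjusted p = 5e-08). For MED15, MED10, MED23 and MED27 the knockout and control libraries did not overlap. MED19 changed by 0.01 ± 0.04 (adjusted p = 0.844). Of the RNA polymerase II subunits 7 of 12 fell and 0 rose (median -0.09), with POLR2F at -0.63 ± 0.03. Of the elongation factors 9 rose and 6 fell of 20, with ELL2, a polymerase elongation factor, at 1.24 ± 0.04. The shares of all genes in this comparison were 27.9% higher and 27% lower.

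MED19 knockout left 12.2, 12.3 and 12.5 CPM of MED19 with guide 1 and 14.3, 12.4 and 14.3 CPM with guide 2, against 27.4, 26.7 and 26.9 CPM in control cells (-1.05 ± 0.04, adjusted p = 6.9e-26). In the kinase module CCNC and MED12L fell and CDK19 did not pass. CDK19 was at 31.8 to 35.4 CPM (0.04 ± 0.04, adjusted p = 0.389), while CCNC fell from 84.6, 78.9 and 81.9 CPM to 67.8 to 71.5 CPM (-0.24 ± 0.03, adjusted p = 1.94e-08). MED12L fell to 4.73 to 5.45 CPM (-0.43 ± 0.07, adjusted p = 1.73e-06). CDK8 (-0.19 ± 0.03) and MED12 (-0.16 ± 0.03) fell, and MED13 (0.17 ± 0.03) and MED13L (0.16 ± 0.03) rose. In the tail MED23 rose to 45.1 to 47.5 CPM (0.33 ± 0.03, adjusted p = 6.48e-12), MED15 to 73.6 to 78.0 CPM (0.26 ± 0.03, adjusted p = 7.11e-10) and MED16 by 0.19 ± 0.03. MED11 fell by 0.28 on the log2 scale (-0.28 ± 0.06, adjusted p = 6.68e-05), with the counting limit on that gene given above.

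MED23 knockout left 16.3, 17.8 and 18.6 CPM of MED23 with guide 1 and 16.7, 16.8 and 16.1 CPM with guide 2, against 37.4, 36.7 and 37.0 CPM (-1.12 ± 0.03, adjusted p = 1.02e-31). MED13L rose to 135 to 152 CPM (0.36 ± 0.03, adjusted p = 1.73e-14) and MED13 by 0.13 ± 0.03 (adjusted p = 0.000351). MED12L (-0.32 ± 0.07, adjusted p = 0.000189), CDK8 (-0.13 ± 0.03) and MED12 (-0.11 ± 0.03) fell, and neither CDK19 (0.05 ± 0.04, adjusted p = 0.273) nor CCNC (0.01 ± 0.03, adjusted p = 0.881) passed. Among the other subunits MED10 rose to 49.1 to 53.4 CPM (0.23 ± 0.03, adjusted p = 2.46e-08) and MED20, a head subunit, by 0.16 ± 0.03. MED7 of the middle rose by 0.15 ± 0.05 (adjusted p = 0.0302), a call lost with either guide alone (adjusted p = 0.0847 and 0.0585) and without control replicate 2 or 3, guide 1 replicate 2 or guide 2 replicate 1 (0.0631 to 0.174). MED8 (-0.20 ± 0.03, adjusted p = 7.62e-08) and MED27 (-0.18 ± 0.04, adjusted p = 8.55e-05) fell. MED19 changed by 0.02 ± 0.04 (adjusted p = 0.818). The knockout and control libraries were apart for MED13L, MED10, MED20, MED8, MED12L and MED27.

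The differences between the knockouts were tested directly, since the 3 lists of calls alone do not show them. CDK19 was lower in MED12 knockout than in MED19 knockout (-0.36 ± 0.03, adjusted p = 6.48e-15) and than in MED23 knockout (-0.37 ± 0.03, adjusted p = 1.59e-15). Between MED19 and MED23 knockout it differed by -0.01 ± 0.03 (adjusted p = 0.833). CCNC was lower in MED19 than in MED23 knockout (-0.25 ± 0.03, adjusted p = 8.83e-11) and in MED12 than in MED23 knockout (-0.17 ± 0.03, adjusted p = 3.95e-07). MED13L was higher in MED12 than in MED19 knockout (0.24 ± 0.02, adjusted p = 5.78e-12), and MED12 and MED23 knockout differed by 0.04 ± 0.02 (adjusted p = 0.142; adjusted p = 0.0363 without MED23 guide 2 replicate 1). MED12L was higher in MED12 than in MED19 knockout (0.29 ± 0.06, adjusted p = 4.89e-05). MED15 was higher in MED12 than in MED23 knockout (0.30 ± 0.03, adjusted p = 8.17e-15), and MED27 was lower (-0.24 ± 0.03, adjusted p = 2.84e-09). In all, 19 members differed between MED12 and MED19 knockout (9 higher and 10 lower in MED12 knockout; 46.8% of all genes, 23.8% higher and 22.9% lower). There were 20 between MED12 and MED23 (10 and 10; 50.8%, or 25.9% and 24.9%) and 13 between MED19 and MED23 (7 and 6; 33.7%, or 17.5% and 16.1%).

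The same knockouts were read in vemurafenib against control cells in the drug, again with 3 control libraries shared by all 3. MED12 knockout changed 22 members there (12 rose, 10 fell, against 62.2% of all genes, 32.5% higher and 29.6% lower). MED19 knockout changed 23 (11 and 12, against 43.7%, or 23.1% and 20.7%) and MED23 knockout 21 (10 and 11, against 47.3%, or 24.6% and 22.7%). At 1.5-fold these were 5 members (2 higher, 3 lower), 2 (both lower) and 2 (both lower), beside 32.4% (16.5% higher, 15.9% lower), 14.2% and 18.2% of all genes. The mitochondrial share was 1.67% to 2.29%, 2.31% to 2.81% and 2.01% to 2.53% in the treated knockouts, against 2.42% to 2.76% in the treated controls, and its part here and in the interactions was not tested. The targeted genes were at -2.21 ± 0.03, -0.96 ± 0.04 and -1.21 ± 0.03.

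In the drug CDK19 was lower in all 3 knockouts than in control cells, by the largest value in MED12 knockout. It was at 67.8, 67.4 and 67.2 CPM in treated control cells, and at 38.0, 36.2 and 38.5 CPM with MED12 guide 1 and 35.1, 35.2 and 35.9 CPM with guide 2 (-0.89 ± 0.03, adjusted p = 2.51e-28). All 6 MED12 knockout libraries lay far below those of MED19 knockout (54.8 to 65.0 CPM; -0.17 ± 0.03, adjusted p = 2.33e-05) and MED23 knockout (60.9 to 63.7 CPM; -0.13 ± 0.03, adjusted p = 0.00117). MED12L fell from 9.27, 8.69 and 8.75 CPM to 4.54 to 5.65 CPM in MED12 knockout (-0.77 ± 0.07), 4.50 to 6.09 CPM in MED19 knockout (-0.80 ± 0.07) and 4.35 to 5.63 CPM in MED23 knockout (-0.84 ± 0.07). No library of any knockout reached the control range. CCNC was higher in MED12 knockout (0.17 ± 0.03, adjusted p = 2.5e-05) and MED23 knockout (0.20 ± 0.03, adjusted p = 1.6e-06), and at 0.07 ± 0.03 (adjusted p = 0.113) in MED19 knockout. MED13 fell in MED23 knockout (-0.16 ± 0.03) and MED19 knockout (-0.07 ± 0.03, adjusted p = 0.0357; 0.2 with guide 1 alone and between 0.0524 and 0.113 without any 1 of control replicates 1, 2 and 3, guide 1 replicates 1 and 3 and guide 2 replicates 1 and 3), and MED13L in MED19 knockout (-0.16 ± 0.03). CDK8 fell in MED19 knockout (-0.14 ± 0.03, adjusted p = 0.000463). Its value in MED12 knockout (-0.07 ± 0.03, adjusted p = 0.0475) did not pass with DESeq2 size factors (adjusted p = 0.116), with either guide alone (0.144 and 0.056), or without any 1 of control replicates 1, 2 and 3, guide 1 replicates 1 and 3 and guide 2 replicate 2 (0.101 to 0.238).

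Several head, middle and tail subunits were higher in treated knockout cells than in treated controls. MED22 stood at 30.6 to 32.9 CPM in MED12 knockout (0.71 ± 0.04, adjusted p = 1.22e-22), 25.2 to 28.2 CPM in MED19 knockout (0.48 ± 0.04) and 25.3 to 27.7 CPM in MED23 knockout (0.46 ± 0.04), against 19.0 to 19.7 CPM in the controls. MED10 was at 0.68 ± 0.03, 0.32 ± 0.03 and 0.36 ± 0.03 in the same order, MED9 at 0.57 ± 0.06, 0.54 ± 0.06 and 0.43 ± 0.06, and MED25, a tail subunit bound by viral and ETS-family activators, at 0.43 ± 0.04, 0.32 ± 0.04 and 0.45 ± 0.04. MED20 was at 0.49 ± 0.03 in MED12 knockout and MED16 at 0.33 ± 0.03 in MED23 knockout. MED15 was lower in all 3, at -0.32 ± 0.03, -0.26 ± 0.03 and -0.31 ± 0.03, and so was MED27, at -0.35 ± 0.04, -0.23 ± 0.04 and -0.39 ± 0.04. Each of these values had an adjusted p under 0.05.

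Whether the drug acted differently on the knockouts was tested as an interaction, the knockout effect in vemurafenib minus that in DMSO. For MED12 it was called for 22 members (12 positive, 10 negative; 49% of all genes, 24.9% positive and 24.2% negative). For MED19 it was called for 15 (8 and 7; 32.6%, or 17.4% and 15.2%) and for MED23 for 15 (6 and 9; 34.8%, or 18.5% and 16.2%). At 1.5-fold 4, 0 and 1 members were called, beside 25%, 9.96% and 11.6% of all genes. MED22, the member that fell most in treated control cells, was at 42.8, 41.6 and 43.9 CPM in DMSO and 31.2, 30.6 and 32.2 CPM in the drug with MED12 guide 1 (interaction 0.75 ± 0.05, adjusted p = 3.15e-18). Its interactions with MED19 and MED23 knockout were 0.43 ± 0.05 and 0.50 ± 0.05. MED9, which the drug lowered in control cells, was at 13.4, 13.6 and 14.4 CPM in DMSO and 14.5, 14.6 and 14.8 CPM in the drug with that guide (0.70 ± 0.08, adjusted p = 6.64e-10), with interactions of 0.55 ± 0.09 for MED19 and 0.60 ± 0.09 for MED23. Interactions of MED25 were 0.50 ± 0.05, 0.34 ± 0.05 and 0.43 ± 0.05, and those of MED10 0.37 ± 0.05, 0.15 ± 0.05 and 0.13 ± 0.05.

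Among the members that the drug raised in control cells, MED15, CDK19, MED12L and MED13L had negative interactions with all 3 knockouts. That rise is subtracted in each interaction, so the sign and its repeat over 3 knockouts are not separate support. MED15 was at 82.7, 83.3 and 83.6 CPM in DMSO and at 91.4, 90.1 and 88.9 CPM in the drug with MED12 guide 1 (-0.71 ± 0.04, adjusted p = 1.23e-19). Its values were -0.52 ± 0.04 for MED19 and -0.40 ± 0.04 for MED23. CDK19 had interactions of -0.57 ± 0.05 (adjusted p = 2.21e-14), -0.21 ± 0.05 (adjusted p = 0.000362) and -0.18 ± 0.05 (adjusted p = 0.00228) for MED12, MED19 and MED23. MED12L was at -0.63 ± 0.10 (adjusted p = 4.56e-07), -0.37 ± 0.10 (adjusted p = 0.003; 0.0849 with guide 2 alone) and -0.52 ± 0.10 (adjusted p = 4.63e-05). MED13L, which rose in all 3 knockouts without the drug, was at -0.39 ± 0.04, -0.32 ± 0.04 and -0.38 ± 0.04, and MED13 at -0.23 ± 0.04, -0.25 ± 0.04 and -0.29 ± 0.04. CCNC was positive in all 3 (0.33 ± 0.05, 0.31 ± 0.05 and 0.20 ± 0.05). CDK8 was not called (0.09 ± 0.05, 0.05 ± 0.05 and 0.06 ± 0.05), although its MED12 value passed with DESeq2 size factors (adjusted p = 0.021). MED23 was called with MED12 knockout (-0.35 ± 0.05, adjusted p = 6.58e-09), MED12 with its own knockout (-0.17 ± 0.04, adjusted p = 0.00142), and MED19 with none (0.09 ± 0.06, 0.09 ± 0.06 and 0.13 ± 0.06), although its value for MED12 passed by DESeq2's Wald test (adjusted p = 0.0472).

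**Figure D3:**
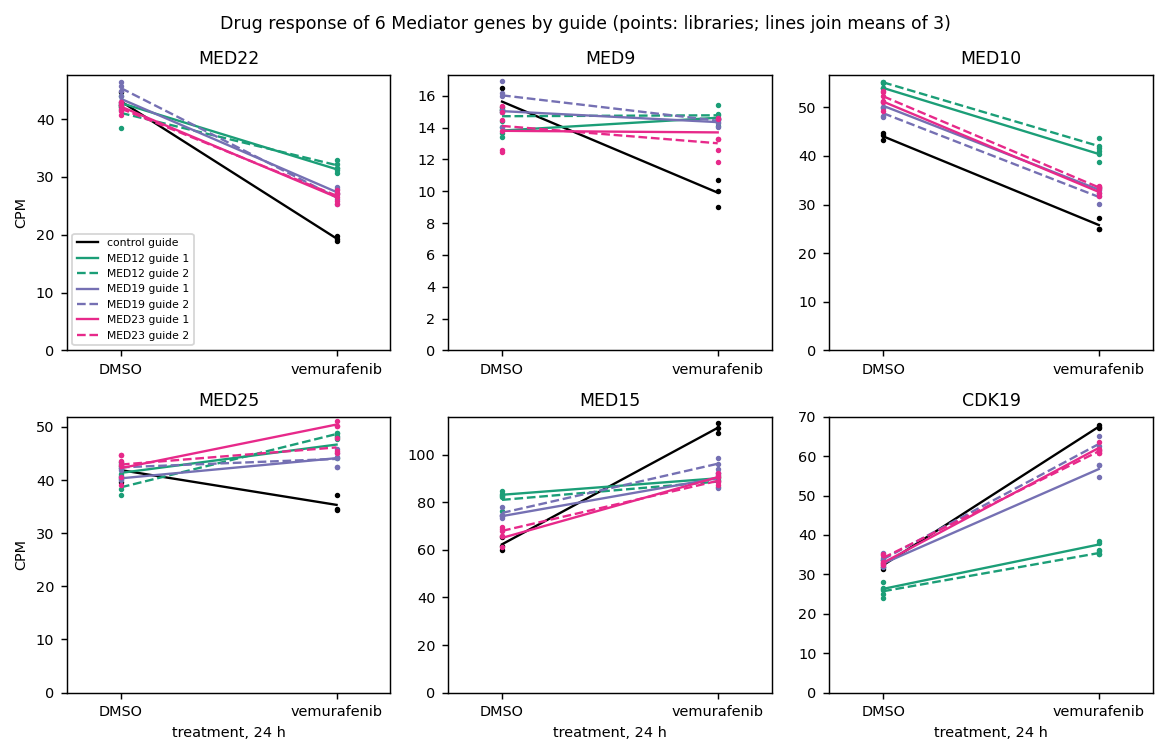
CPM of 6 members in DMSO and vemurafenib for each guide of the drug experiment (points are libraries, lines join the means of 3). The control line falls most steeply for MED22 and MED10 and rises most steeply for MED15 and CDK19. The 2 MED12 guides give the flattest lines for MED15 and the lowest drug values for CDK19.

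Of all genes 24.9% had a positive and 24.2% a negative interaction with MED12, 17.4% and 15.2% with MED19, and 18.5% and 16.2% with MED23. By module, interactions of the head were 4 positive and 0 negative of 7 for MED12 and 1 and 0 for both MED19 and MED23. The middle had 5, 4 and 2 positive and 0 negative of 9, and the kinase module 1 positive in each, with 5, 4 and 4 negative of 7. RNA polymerase II subunits had 10, 8 and 9 positive interactions of 12 and 0 negative, with POLR2H at 0.60 ± 0.04, 0.34 ± 0.04 and 0.37 ± 0.04. Initiation factors had 12, 10 and 7 positive and 3, 2 and 2 negative of 18, with GTF2H2 at 0.80 ± 0.05 for MED12. Cohesin and coactivators had 4, 1 and 0 positive and 9 negative of 14 in each, with PPARGC1A at -1.15 ± 0.14, -0.93 ± 0.15 and -1.17 ± 0.15. TFIID and the elongation factors had members on both sides, the latter with AFF1 at -1.17 ± 0.04 and ELL2 at 0.89 ± 0.06 for MED12. Medians of the Mediator interactions were 0.09, -0.01 and -0.01, and those of all genes -0.04, 0.00 and -0.01.

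The kinase pair summarises these values on a scale that does not depend on depth. Under vemurafenib CDK19 made up 48.9% ± 0.29 of CDK8 and CDK19 per kilobase in control cells, and 35.8% ± 1.5 and 34.7% ± 0.98 with the MED12 guides (mean ± SD, n = 3). With the MED19 guides it was 46.6% ± 1.0 and 50.0% ± 0.67, and with the MED23 guides 47.8% ± 1.7 and 47.7% ± 0.071. The 6 MED12 libraries had a highest share of 36.8%, below the lowest of the other groups in the drug, 45.5%. In DMSO the shares were 22.7% ± 0.60 and 22.7% ± 0.59 with the MED12 guides, 27.3% ± 1.0 and 28.3% ± 1.5 with the MED19 guides and 26.9% ± 0.10 and 27.1% ± 0.82 with the MED23 guides, against 24.6% ± 0.78 in control cells. The pair's sum was lowest with the MED12 guides in the drug, at 16.8 ± 0.18 and 16.3 ± 0.52 CPM per kb. MED13L made up 32.4% ± 0.033 of its pair with MED13 in control cells in DMSO, 35.6% ± 0.21 and 35.3% ± 1.2 with the MED12 guides, and 35.9% ± 0.26 and 36.1% ± 0.14 with the MED23 guides. With the MED19 guides, where both MED13 and MED13L rose, the share was 32.3% ± 0.35 and 32.1% ± 0.57.

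**Figure D4:**
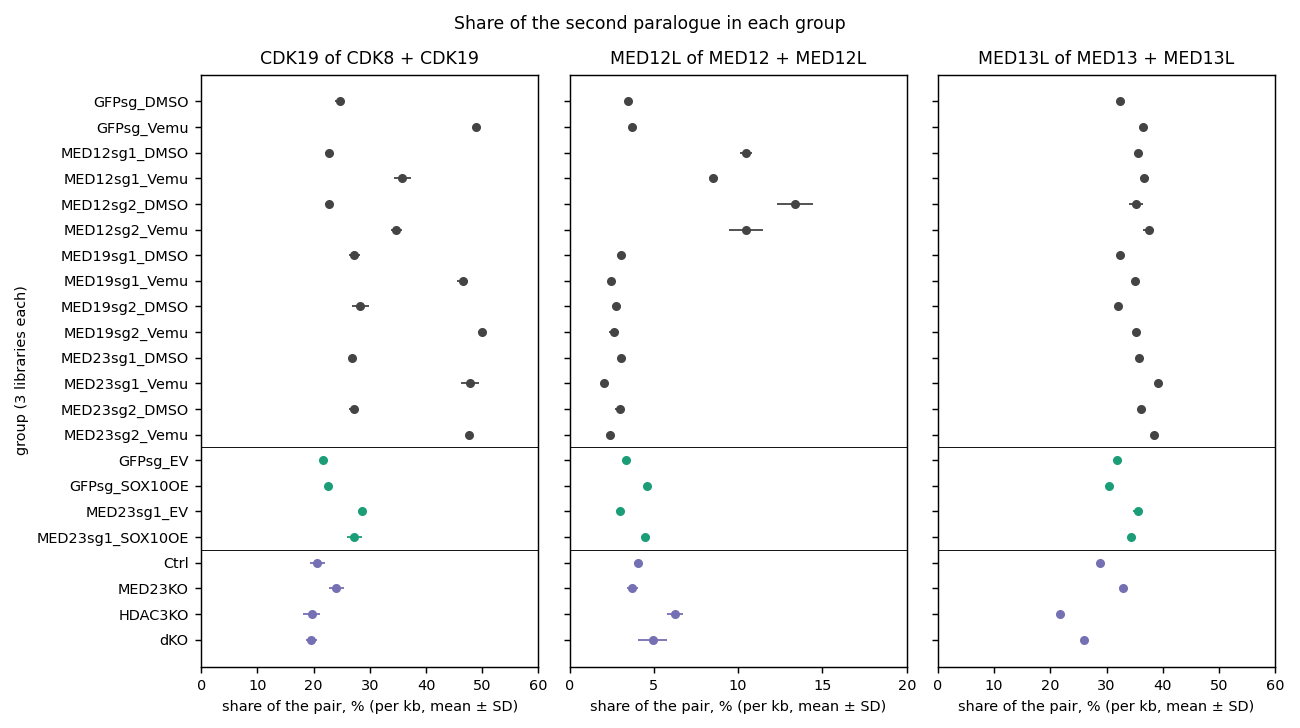
Share of CDK19, MED12L and MED13L in the sum of each with its paralogue, per kilobase, in the 22 groups (points are means of 3 libraries, bars SD, thin lines divide the 3 experiments). CDK19 is near 49% in treated controls and near 35% with the MED12 guides in the drug, MED12L exceeds 8% with the MED12 guides alone, and MED13L is lowest in HDAC3 knockout cells (21.7%).

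MED23 was lost in 6 comparisons that share no library, so its effect on the other subunits can be read across experiments. These were DMSO and vemurafenib, EV and SOX10 overexpression, and cells with and without HDAC3. MED23 itself fell in all 6: from 31.9, 29.4 and 31.7 to 16.6, 16.0 and 15.7 CPM in the EV cells (-0.95 ± 0.06, adjusted p = 8.74e-15) and from 31.9, 33.4 and 33.4 to 16.0, 15.3 and 15.6 CPM in the HDAC3 experiment (-1.07 ± 0.06, adjusted p = 2.77e-12). Of 17953 genes tested in all 3 experiments, 4.26% fell in all 6 comparisons and 4.56% rose in all 6. MED8 (ENSG00000159479, chromosome 1, 43383917 to 43389808), which lies in the movable part of the head, was the only other member to fall in all 6. It went from 63.4, 67.2 and 65.1 CPM to 54.6 to 58.4 CPM in DMSO, from 58.5, 59.7 and 60.8 to 47.4, 51.2 and 51.2 CPM in the EV cells (-0.26 ± 0.04, adjusted p = 1.7e-05), and from 65.9, 69.4 and 69.6 to 60.7, 56.4 and 57.5 CPM in the HDAC3 experiment (-0.23 ± 0.05, adjusted p = 0.00132). The libraries did not overlap in any of these 3. The 2 of 33 members that fell in all 6, one of them the target, and the 0 that rose are close to the background.

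MED13L (ENSG00000123066, chromosome 12, 115953872 to 116277719) rose in 5 of the 6. It went from 90.1, 91.4 and 87.9 to 122, 114 and 111 CPM in the EV cells (0.36 ± 0.04, adjusted p = 3.5e-08) and from 86.4, 84.5 and 84.6 to 111, 110 and 111 CPM in the HDAC3 experiment (0.38 ± 0.05, adjusted p = 1.37e-06). The exception was vemurafenib (-0.02 ± 0.03, adjusted p = 0.544). MED27 fell in 5 and was at -0.13 ± 0.06 (adjusted p = 0.163) in the other, MED23 knockout in the HDAC3 experiment. MED30 fell in 4, though its call in the HDAC3 experiment (-0.25 ± 0.08, adjusted p = 0.0274) was lost without any 1 of control replicates 2 and 3 and MED23 knockout replicates 1 and 2 (adjusted p = 0.0752 to 0.155). MED20 rose in 4, and MED12L fell in 3. CDK19 rose in 3, with 22.9, 23.3 and 23.4 CPM in control and 29.9, 29.8 and 29.6 CPM in MED23 knockout EV cells (0.36 ± 0.05, adjusted p = 1.31e-06), and fell in vemurafenib. Its rise in the HDAC3 experiment (0.21 ± 0.07, adjusted p = 0.0265) was also lost without any 1 of these 4 libraries (adjusted p = 0.0793 to 0.116). In total 5 members were called in both directions and 8 in none. The matching shares of all genes were not computed for these 2 counts or for calls in 3 to 5 of the 6 comparisons. Those tallies therefore describe the members only.

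**Figure D5:**
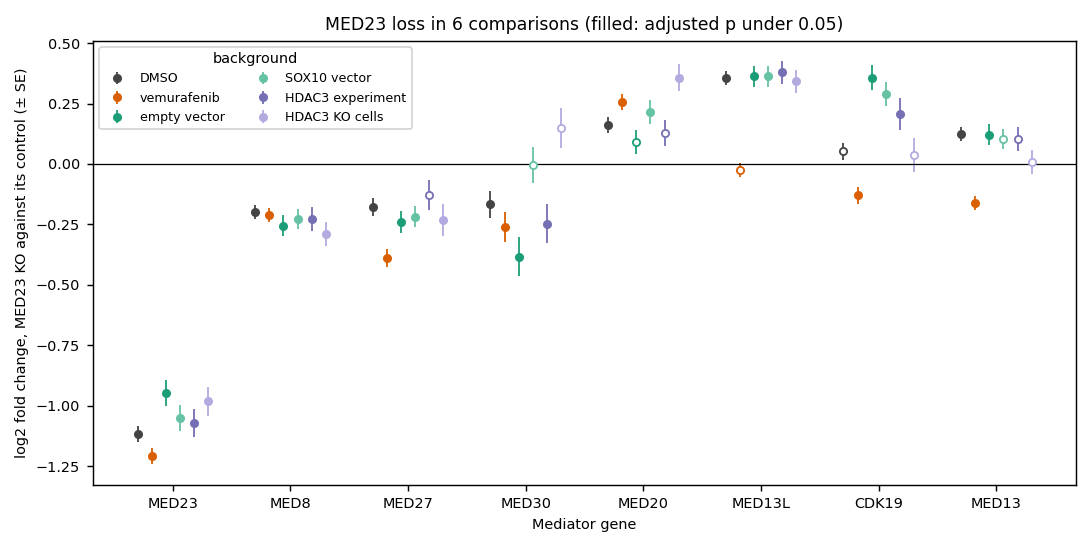
Log2 fold changes ± SE of MED23 knockout for 8 members in 6 comparisons that share no library (filled points have an adjusted p under 0.05). MED23 and MED8 lie below 0 in all 6, and MED13L lies between 0.34 and 0.38 in all but vemurafenib.

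In the SOX10 experiment MED23 knockout changed 10 members in EV cells (4 rose, 6 fell, against 43.4% of all genes, 21.2% higher and 22.3% lower) and 10 with SOX10 overexpression (6 and 4, against 32.4%, or 16.1% and 16.3%), that is 30.3% of the members in each, below the background in the first case and near it in the second. MED30 fell in EV cells, from 13.9, 14.2 and 13.7 to 11.7, 11.4 and 9.01 CPM (-0.38 ± 0.08, adjusted p = 0.000301), and CDK8 fell as well (-0.18 ± 0.05, adjusted p = 0.00142). MED29, a tail subunit, rose by 0.17 ± 0.04 and MED13 by 0.12 ± 0.04, the latter not without control replicate 1 or 3 or knockout replicate 1 (adjusted p = 0.0695, 0.0897 and 0.0665). With SOX10 overexpression MED23 was at -1.05 ± 0.05, MED13L at 0.36 ± 0.04, CDK19 at 0.29 ± 0.05 (adjusted p = 2.96e-05), MED20 at 0.22 ± 0.05, MED9 at -0.32 ± 0.06 and MED8 at -0.23 ± 0.04, all past the threshold. CDK8 (-0.07 ± 0.04) and CCNC (0.01 ± 0.04) did not pass there. MED19 was at 0.18 ± 0.07 (adjusted p = 0.0339), which did not pass by DESeq2's Wald test (adjusted p = 0.0549) or without any 1 of 5 of the 6 libraries, knockout replicate 1 being the other (0.0543 to 0.216).

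SOX10 overexpression raised MED12L, MED27, MED8 and CCNC in both control and MED23 knockout cells. In control cells 9 members were called (6 rose, 3 fell, against 22.6% of all genes, 11.6% higher and 11% lower) and in MED23 knockout cells 11 (8 and 3, against 41.9%, or 21.2% and 20.7%). By DESeq2's Wald test the splits were 5 and 1, and 8 and 1. No member called by edgeR changed by 1.5-fold, beside 5.45% and 11% of all genes. MED12L was the member with the largest rise in both: from 5.22, 5.15 and 4.99 to 6.40, 6.31 and 6.81 CPM in control cells (0.35 ± 0.09, adjusted p = 0.00626) and from 4.99, 4.47 and 4.31 to 6.46, 6.85 and 6.79 CPM in MED23 knockout cells (0.55 ± 0.09, adjusted p = 2.04e-05). The libraries did not overlap in either. A further 3 members rose in both, MED27 (0.22 ± 0.04 and 0.24 ± 0.04), MED8 (0.15 ± 0.04 and 0.18 ± 0.04) and CCNC (0.11 ± 0.04 and 0.15 ± 0.04). MED10 fell in both (-0.15 ± 0.05 and -0.14 ± 0.05). Of all genes, 8.09% rose in both and 7.76% fell in both. In control cells the calls of CCNC, MED10 and CDK19 (0.16 ± 0.05, adjusted p = 0.0285) were lost when EV control replicate 1 was left out (adjusted p = 0.0688, 0.0726 and 0.0926), and the number of members called was then 5. Each was also lost without SOX10 overexpression replicate 2 (0.134, 0.137 and 0.0746) and without EV control replicate 3 (0.103, 0.197 and 0.0583). CCNC was further lost without SOX10 overexpression replicate 3 (0.0753) and CDK19 without EV control replicate 2 (0.059) or SOX10 overexpression replicate 1 (0.124). Without the low-count filter CCNC and CDK19 did not pass (0.0572 and 0.0524), and by DESeq2's Wald test MED10 and CDK19 did not (0.056 and 0.0719). In MED23 knockout cells MED10 was lost without EV replicate 2 or 3 or SOX10 replicate 1 or 2 (0.0709 to 0.134). MED13L was called as a fall in those cells, but not by DESeq2's Wald test (adjusted p = 0.0689) or with only the groups compared (adjusted p = 0.0708). MED9 rose in control cells (0.24 ± 0.06, adjusted p = 0.00341) and MED12 fell (-0.12 ± 0.03, adjusted p = 0.0075). In MED23 knockout cells MED30 rose from 11.7, 11.4 and 9.01 to 12.9, 14.2 and 15.6 CPM (0.41 ± 0.08, adjusted p = 0.000111), and MED31, MED28 and CDK8 rose by 0.32 ± 0.10, 0.24 ± 0.04 and 0.19 ± 0.04. MED31 shares 58.3% of its exon bases with a gene on the opposite strand, and its call was lost without SOX10 replicate 2 or 3 (adjusted p = 0.0703 and 0.0705).

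HDAC3 knockout changed 16 members in control cells (9 rose, 7 fell, against 42.1% of all genes, 21.2% higher and 20.9% lower) and 18 in MED23 knockout cells (11 and 7, against 38%, or 19.1% and 18.9%). With the replicate number as a block, the counts were 18 (11 and 7) and 21 (13 and 8). MED16 (ENSG00000175221, chromosome 19, 867630 to 893218), a tail subunit, was the only member past 1.5-fold in control cells, where 15.2% of all genes were. It was at 30.6, 28.0 and 28.9 CPM in control cells and at 20.1, 19.1 and 17.5 CPM without HDAC3 (-0.63 ± 0.07, adjusted p = 3.98e-07). In MED23 knockout cells it went from 30.8, 30.3 and 27.2 to 25.7, 23.3 and 20.9 CPM (-0.34 ± 0.07, adjusted p = 0.000945). MED25 fell from 24.8, 24.0 and 25.1 to 18.5, 18.4 and 16.0 CPM (-0.48 ± 0.08), MED20 by 0.42 (-0.42 ± 0.05) and MED12 by 0.39 on the log2 scale (-0.39 ± 0.06, adjusted p = 1.15e-05). MED13L fell to 71.7, 66.3 and 68.9 CPM from 86.4, 84.5 and 84.6 CPM (-0.30 ± 0.05, adjusted p = 1.64e-05), while MED13 rose (0.24 ± 0.05, adjusted p = 0.0003), so that MED13L made up 28.9% ± 0.36 of the pair in control cells and 21.7% ± 0.29 without HDAC3.

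MED8, which fell on loss of MED23, rose on loss of HDAC3. It was at 83.3, 89.6 and 89.7 CPM in HDAC3 knockout cells (0.36 ± 0.05, adjusted p = 3.66e-06) and at 70.6, 74.7 and 69.1 CPM in cells lacking both, against 60.7, 56.4 and 57.5 CPM with MED23 knockout alone (0.30 ± 0.05, adjusted p = 6.2e-05). CCNC rose from 87.0, 92.8 and 96.9 to 97.4, 113 and 116 CPM in control cells (0.24 ± 0.06, adjusted p = 0.00369) and to 120, 118 and 129 CPM in MED23 knockout cells (0.43 ± 0.06, adjusted p = 9.4e-06). MED15 rose from 40.2, 37.4 and 40.6 to 50.7, 55.2 and 52.3 CPM in control cells (0.42 ± 0.06, adjusted p = 8.39e-06), and MED9 by 0.33 ± 0.08. CDK8 rose in MED23 knockout cells (0.22 ± 0.05, adjusted p = 0.002) and was at 0.09 ± 0.05 (adjusted p = 0.175) in control cells. CDK19 passed in neither (0.01 ± 0.07 and -0.16 ± 0.07). In MED23 knockout cells MED31 (0.48 ± 0.12), MED6 of the head (0.39 ± 0.05) and MED30 (0.33 ± 0.08) were also among the largest rises, and MED25 (-0.42 ± 0.08), MED13L (-0.34 ± 0.05) and MED12 (-0.34 ± 0.06) among the largest falls. Over both comparisons, which share no library, 6 members rose in both (MED6, MED8, MED18, MED4, MED13 and CCNC) and 5 fell in both (MED20, MED16, MED25, MED12 and MED13L), that is 18.2% and 15.2% of the 33 members, beside 11.3% and 10.9% of all genes. The rise of MED13 in MED23 knockout cells (0.15 ± 0.05, adjusted p = 0.0187) was lost without MED23 knockout replicate 1 or 2 or double knockout replicate 3 (0.0898, 0.0559 and 0.123). MED19 and MED23 were also called as rises in those cells. Both calls were lost without MED23 knockout replicate 1, 2 or 3 or double knockout replicate 1 (0.0512 to 0.202).

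MED23 knockout changed 5 members in cells with HDAC3 (2 rose, 3 fell, against 24.3% of all genes, 12.3% higher and 12% lower) and 13 in cells without it (7 and 6, against 35.5%, or 17.2% and 18.3%). The difference between these effects was called for 3 members (2 positive, 1 negative), against 20.5% of all genes, 10% positive and 10.5% negative. With the replicate number as a block, MED23 knockout changed 8 members in cells with HDAC3 (5 rose, 3 fell) and 16 without it (10 and 6). MED15 had an interaction of -0.37 ± 0.09 (adjusted p = 0.00396): it was at 42.5, 39.8 and 38.1 CPM in MED23 knockout cells and at 43.5, 43.7 and 37.7 CPM in cells lacking both, below the 50.7 to 55.2 CPM of HDAC3 knockout alone. MED30 (0.40 ± 0.12, adjusted p = 0.0173) and MED20 (0.23 ± 0.08, adjusted p = 0.0377) were the other two. Both were lost without control replicate 2 (adjusted p = 0.0521 and 0.0923), and also without control replicate 3, MED23 knockout replicate 2, HDAC3 knockout replicate 1 or double knockout replicate 2 (0.0506 to 0.0957). CCNC had an interaction of 0.19 ± 0.09 that was not called (adjusted p = 0.137), but passed with the replicate number as a block (adjusted p = 0.0143), where 8 members were called, and without the low-count filter (0.0439). MED23 itself was at -1.07 ± 0.06 and -0.98 ± 0.06 in the presence and absence of HDAC3, with an interaction of 0.09 ± 0.08 (adjusted p = 0.526). In cells without HDAC3, MED20 (0.36 ± 0.06), MED13L (0.34 ± 0.05) and MED16 (0.31 ± 0.08) had the largest rises, and after MED23 the largest falls were those of MED15 (-0.34 ± 0.06), MED12L (-0.32 ± 0.11, adjusted p = 0.0326) and MED8 (-0.29 ± 0.05). That of MED12L was lost without HDAC3 knockout replicate 1 or 3 or double knockout replicate 1 or 3 (0.0692 to 0.181).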

How the data were processed

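Poly(A) RNA of 66 A375 libraries (22 groups of 3) was sequenced from stranded libraries, per the labels' protocols. Per the submitters' processing notes the tools were bcl2fastq, HISAT2 and HTSeq with build hg38. Versions, annotation and strand setting: not given in the sources used here. The authors deposited whole-number read counts per gene in 3 tables, 1 per experiment. The names of 15 columns are not sample titles and were matched by their wording. Each table was fitted separately with edgeR 4.0.16 (R 4.3.3): TMM scaling, filterByExpr (minimum count 10, total 15), 1 mean per group, the quasi-likelihood test, contrasts weighting both guides equally, and Benjamini-Hochberg adjustment over all genes tested. A gene was called at an adjusted p under 0.05, and a second rule added a change of 1.5-fold. SE was derived from the log2 fold change and its F statistic. CPM (the usual counts-per-library-size unit) use the TMM-scaled library size, so they hold within an experiment, and per-kilobase values use 1 principal transcript per gene (GENCODE 29). Depth was high for the members: the fewest counts over 3 control libraries were 3009, 409 and 1641 (all MED12L), and counts varied between replicates by 1.42 to 20.7 times sampling noise.

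The text names the targeted genes, the kinase module, and per comparison up to 4 members with the largest rise and 4 with the largest fall among those called, and up to 2 genes per direction of each other list. Not each of these is given for every comparison. Members named beyond this rule were called in several comparisons or were chosen after their values were seen. The members and lists were chosen with earlier results of these data known. Alternatives were DESeq2 1.42.0 size factors, its Wald test, no filter on low counts, only the groups compared, a replicate block, each guide alone, and leaving out each library. Replicate numbers were read as pairing only where every same-numbered pair had a correlation above 0.1, which held for HDAC3 knockout in MED23 knockout cells (0.152 to 0.332). Calls and p-values in the text, also those with 1 library left out, are without a replicate block unless one is named. The scripts were tested on simulated data. Protein levels were not measured.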

Additional observations from a re-analysis of the deposited data

Results flagged for a closer look

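The response to vemurafenib of 4 members differed between MED12 knockout and control cells by an adjusted p under 0.05 (edgeR) and by 1.5-fold or more. The interaction, knockout effect in the drug minus that in DMSO on the log2 scale, was 0.75 for MED22, 0.70 for MED9, -0.71 for MED15 and -0.63 for MED12L. For MED23 knockout the same held for 1 member, MED9, at 0.60. In MED19 knockout no member reached that size, the nearest being MED9 at 0.55 (adjusted p = 6.21e-07) and MED15 at -0.52 (adjusted p = 3.68e-14), and 9.96% of all genes did. The whole-genome shares were 25% for MED12 and 11.6% for MED23. The 3 interactions share control libraries. Groups of 3 libraries were too small to be searched for single outlying samples.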

How the results depend on the processing

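Direction was checked under each alternative for the targeted genes, the kinase module and up to 4 largest rises and 4 largest falls per comparison. No call among these turned its direction. Most counts of members called stayed within 1.5 times the reported count. The exceptions lay in the SOX10 and HDAC3 experiments. MED23 knockout in the HDAC3 experiment had 5 members called, and 8 with a replicate block. Its interaction with HDAC3 knockout had 3, against 8 with the replicate block, 6 without the filter on low counts and 5 by DESeq2's Wald test. Leaving out 1 library gave 5 to 8 instead of 9 for SOX10 overexpression in control cells (lowest without EV control replicate 1). It gave 3 to 6 instead of 5 for MED23 knockout in the HDAC3 experiment (lowest without control replicate 2, highest without control replicate 1), and 1 to 5 instead of 3 for the interaction (lowest without control replicate 2, highest without double knockout replicate 1). The cause was not tested. In HDAC3 knockout of MED23 knockout cells, where the numbers pair the libraries, the replicate block gave 21 members (13 rose, 8 fell) against 18 (11 and 7), with all 18 shared. No other comparison had every pair above 0.1: the mean correlation of their deviations was 0.00648 in the drug experiment, 0.0426 in the SOX10 experiment and 0.214 in the HDAC3 experiment, where it was -0.105 for other numbers and 11 of 12 libraries lay closest to their own number. The split of higher and lower calls moved by over 10 percentage points in these cases, besides those with 1 library left out: for SOX10 overexpression by DESeq2's Wald test, to 5 and 1 in control cells and 8 and 1 in MED23 knockout cells; without the low-count filter, to 14 and 7 for MED12 knockout in vemurafenib and 5 and 1 for the MED23 and HDAC3 interaction; with the replicate block, to 5 and 3 for MED23 knockout in the HDAC3 experiment; with only the groups compared, to 9 and 8 for the MED23 and vemurafenib interaction; and with 1 guide, to 8 and 5 for MED12 minus MED19 knockout (guide 1) and to 6 and 8 or 7 and 4 for the MED19 and vemurafenib interaction (guide 1 or 2). A member not called may still have changed by less than the depth and the spread of 3 libraries can show.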
